A study of Mus musculus with 12 samples.

Results

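The 10 genes described here encode matricellular proteins: Sparc, Postn, Cthrc1, Spp1, Tnc, Thbs1, Thbs2, Thbs3, Thbs4 and Cilp. They were picked by name from a table of read counts of 49568 mouse genes, with earlier results of these libraries known, among them the difference between TAC and sham surgery in both genotypes. For these 10 genes, levels and differences between TAC and sham are therefore given as a description, calls counted there support nothing, and tests are kept for the differences between genotypes. All 10 genes were among the 14712 that passed a filter on low counts, Spp1 and Cthrc1 only through their TAC libraries.

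Matricellular proteins are secreted into the extracellular matrix without forming its load-bearing scaffold. They bind collagens, growth factors and cell surface receptors such as integrins, and so alter how cells attach, migrate and deposit matrix. Most of them are scarce in the healthy adult heart and abundant after injury or pressure overload, when activated fibroblasts are their main source, with contributions from macrophages and, for some thrombospondins, from cardiomyocytes.

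The libraries came from cardiomyocytes of male mice at 11 weeks of age, isolated 7 days after TAC, in which a constriction of the aorta raises the pressure against which the heart pumps, or after sham surgery. There were 4 groups of 3 libraries: dKO TAC, control TAC, dKO sham and control sham. The dKO mice had the genotype MHC-MerCreMre/+; Mrtf-a-/-; Mrtf-bflox/flox, and control mice had alphaMHC-MerCreMre/+. All mice of all groups thus carried the tamoxifen-inducible Cre transgene driven in cardiomyocytes, and all received 3 daily tamoxifen injections at 30 ug/g at 8 weeks. The dKO mice lacked the first of the myocardin-related transcription factors, which are coactivators of serum response factor, in every cell type, and the second only where Cre had acted, in cardiomyocytes. Fibroblasts and macrophages of dKO mice therefore lacked one factor and kept the other. The treatment protocol gives surgery at 10 weeks, whereas the design text gives 8 weeks. The labels do not say whether the 3 libraries of a group came from separate mice, so p-values measure the spread between these libraries.

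Total counts per library lay between 20082000 and 29675212. Levels are given in CPM, counts scaled for depth on library sizes adjusted by the TMM method, and 3 counts, used as a floor, were worth 0.0935 to 0.184 CPM depending on the library. Mkl1, the gene of the first factor, ranged over 2.22 to 2.93 CPM in dKO TAC against 9.32 to 16.0 CPM in control TAC. Its sham libraries spanned 2.15 to 3.20 CPM in dKO against 7.59 to 11.4 CPM in control. Mkl2, the gene of the second, ranged over 18.1 to 28.1 CPM in dKO TAC against 30.1 to 37.0 CPM in control TAC, and its sham libraries spanned 15.2 to 26.5 CPM in dKO against 32.6 to 44.1 CPM in control. Mitochondrially encoded genes took 15.32% of counts in dKO TAC replicate 2 and 16.51% in dKO sham replicate 1, against 23.16% to 32.57% in the other 10 libraries. Control TAC replicate 1 stood apart in another way: it had the lowest level of its group for all 10 matricellular genes. Markers of cardiomyocytes were the most abundant of the marker lists, at a summed 58142 to 171562 CPM over 12 genes. Markers of other cells were present in every library, so the sedimented cells were not pure. No library of unsedimented heart was among the samples, so enrichment was not measured.

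**Figure D1:**
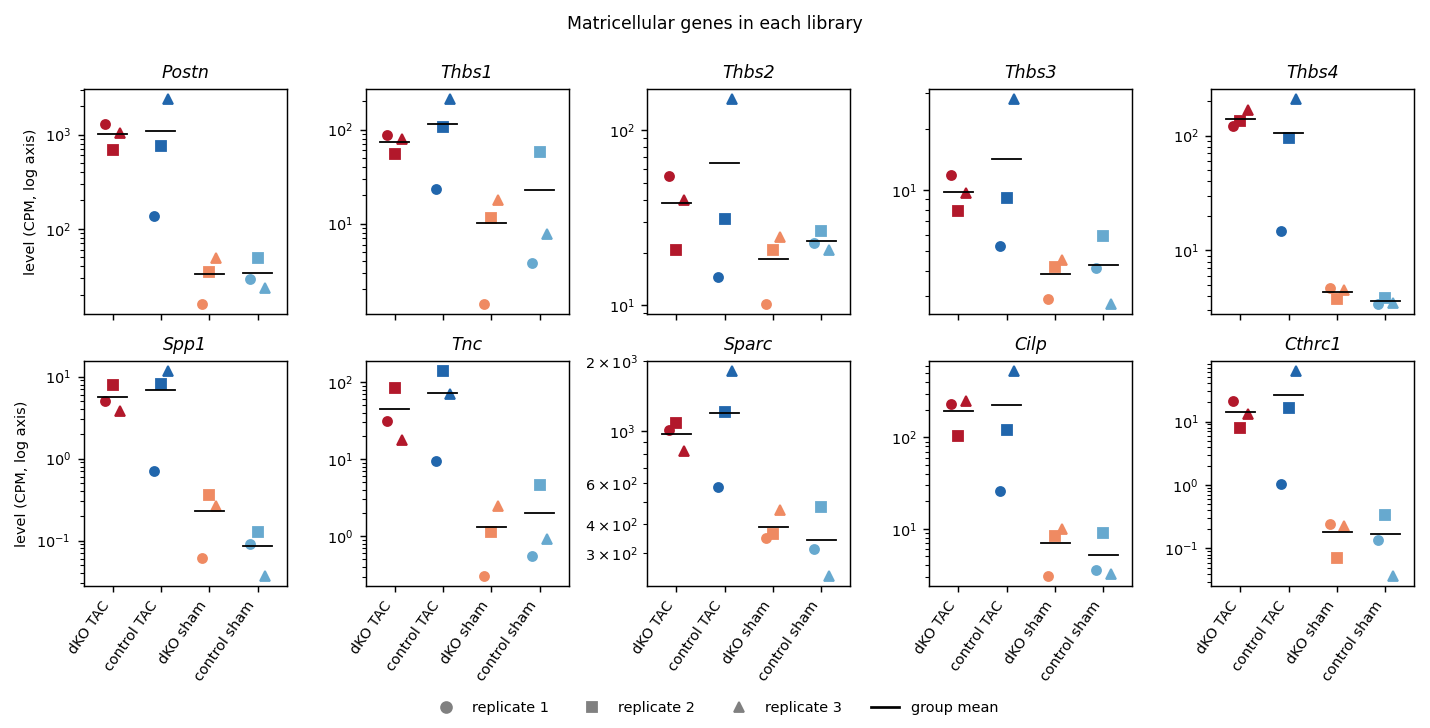
Level of each of the 10 matricellular genes in each library, in CPM on a log axis whose range differs between panels. Each point is a library, with the replicate number given by its shape, and the line is the group mean of 3 libraries. The TAC groups sit above the sham groups in most panels, and control TAC replicate 1 (circle) is the lowest of its group in all 10.

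Sparc, Postn and Cthrc1 are associated with collagen. Sparc encodes a collagen-binding protein that helps procollagen to be processed and deposited. It had 1016, 1092 and 827 CPM in dKO TAC libraries 1 to 3, against 577, 1208 and 1812 CPM in control TAC. After sham it had 348, 363 and 458 CPM in dKO and 313, 472 and 240.2 CPM in control. Both TAC groups lay above both sham groups, while the genotypes overlapped after either surgery. Sparc averaged 2.51-fold higher after TAC than after sham in dKO (log2 1.33 ± 0.368, SE) and 3.51-fold higher in control (1.81 ± 0.373), starting from the highest sham level of the 10 genes in either genotype.

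Postn encodes periostin, which binds collagen and integrins and is widely used as a marker of activated cardiac fibroblasts. Its levels were 1289, 690.3 and 1038 CPM in dKO TAC, against 136, 763 and 2364 CPM in control TAC. After sham they were 16.0, 35.0 and 48.8 CPM in dKO and 29.2, 48.6 and 23.6 CPM in control. No TAC library overlapped a sham library. The 3 dKO TAC libraries differed 1.87-fold from highest to lowest, and the 3 control TAC libraries 17.4-fold. Mean levels were 30.2-fold higher after TAC in dKO (log2 4.91 ± 0.849) and 32.2-fold higher in control (5.01 ± 0.853).

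Cthrc1 encodes a secreted glycoprotein with a collagen-like stretch, produced by activated fibroblasts and linked to cell migration and Wnt receptor signalling. It had 21.4, 8.04 and 13.3 CPM in dKO TAC, against 1.05, 16.2 and 61.8 CPM in control TAC. In sham hearts it was close to undetected, with 4, 2 and 6 counts in dKO and 3, 8 and 1 counts in control. The control TAC libraries differed 58.9-fold, the widest range within a group among the 10 genes. Over the summed counts, 1215 in dKO TAC and 12 in dKO sham gave a ratio of 83.2 after scaling (95% exact interval 47.5 to 161.5). In control, 2375 and 12 counts gave a ratio of 167.1 (95.5 to 323.9). These intervals cover counting error only and leave out the spread between libraries.

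Spp1 and Tnc encode ligands of integrins and, for Spp1, of CD44. Spp1 encodes osteopontin, a phosphoprotein that macrophages and activated fibroblasts secrete. It had 5.01, 7.95 and 3.82 CPM in dKO TAC, against 0.711, 8.08 and 11.6 CPM in control TAC. Sham libraries held 1, 10 and 7 counts in dKO and 2, 3 and 1 counts in control, at or near the floor in control. All TAC libraries lay above all sham libraries. The ratio of TAC to sham over summed counts was 22.6 in dKO (95% exact interval 14.2 to 38.5, from 496 and 18 counts) and 84.4 in control (38.6 to 231.0, from 600 and 6 counts). As for Cthrc1, these intervals cover counting error only, while the control TAC libraries differed 16.2-fold in Spp1. They do not test a difference between genotypes, and the interaction test given below did not call Spp1.

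Tnc encodes tenascin C, a large glycoprotein that loosens cell adhesion at sites of tissue remodelling. It had 31.7, 84.0 and 18.0 CPM in dKO TAC, against 9.44, 138 and 70.1 CPM in control TAC. In sham libraries Tnc had 0.307, 1.15 and 2.45 CPM in dKO and 0.548, 4.62 and 0.930 CPM in control. Replicate 2 was the highest library in both TAC groups, and Tnc was the single member whose control TAC maximum was not in replicate 3. The log2 difference between TAC and sham was 5.03 ± 1.09 in dKO and 5.16 ± 1.08 in control.

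Thrombospondins are multimeric glycoproteins that bind calcium, matrix proteins and cell surface receptors. Thbs1 encodes the best studied of them, which binds CD47 and CD36 and can release TGF-beta from its latent form. It had 86.9, 55.3 and 79.7 CPM in dKO TAC, against 23.4, 107 and 209 CPM in control TAC. After sham it had 1.41, 11.5 and 17.8 CPM in dKO and 3.79, 57.4 and 7.70 CPM in control. Control sham replicate 2 exceeded control TAC replicate 1, so the surgeries overlapped in control but not in dKO. Its log2 difference between TAC and sham was 2.83 ± 1.04 in dKO and 2.30 ± 1.02 in control.

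Thbs2, the close relative of Thbs1 that restrains blood vessel growth, had 54.7, 20.6 and 39.8 CPM in dKO TAC, against 14.5, 30.9 and 150 CPM in control TAC. Sham libraries had 10.2, 20.6 and 24.5 CPM in dKO and 22.8, 26.5 and 20.7 CPM in control. Its TAC and sham libraries overlapped in both genotypes, and its log2 differences were 1.05 ± 0.669 in dKO and 1.48 ± 0.673 in control. The value in control rested on control TAC replicate 3, since without that library it was -0.03.

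Thbs3, which in mouse heart has been linked to weaker attachment of cardiomyocytes through integrins, was the lowest thrombospondin per kilobase of exon in all 6 TAC libraries. It had 11.8, 7.86 and 9.61 CPM in dKO TAC, against 5.32, 9.11 and 27.9 CPM in control TAC. After sham it had 2.89, 4.17 and 4.52 CPM in dKO and 4.11, 5.91 and 2.75 CPM in control. The surgeries were apart in dKO and overlapped in control, where control sham replicate 2 was above control TAC replicate 1. Thbs3 overlaps Mtx1 on the opposite strand. Mtx1 had 44.1 CPM in dKO sham replicate 1 and 12.5 to 20.1 CPM in the other 11 libraries, so Thbs3 was not high where its neighbour was.

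Thbs4, which in mouse heart is made by cardiomyocytes as well as by other cells and takes part in the endoplasmic reticulum stress response, had 121, 135 and 166 CPM in dKO TAC, against 14.8, 95.1 and 207 CPM in control TAC. Its sham levels were 4.67, 3.78 and 4.48 CPM in dKO and 3.43, 3.85 and 3.50 CPM in control. The sham levels were the most even among the members, with an SD of 10.9% of the mean in dKO and 6.35% in control. The TAC libraries of either genotype were apart from its sham libraries, with log2 differences of 5.03 ± 0.701 in dKO and 4.88 ± 0.698 in control.

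Cilp encodes cartilage intermediate layer protein, which binds TGF-beta and dampens its signalling. It had 234, 103 and 249.6 CPM in dKO TAC, against 26.1, 121 and 527 CPM in control TAC. After sham it had 3.07, 8.27 and 9.90 CPM in dKO and 3.52, 8.90 and 3.20 CPM in control. The surgeries did not overlap in either genotype, with log2 differences of 4.77 ± 0.942 in dKO and 5.43 ± 0.974 in control.

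By chromosome position (GRCm38, GENCODE release 21), all 10 genes are protein coding. Sparc lies at chr11:55394500-55423183 on the minus strand, Postn at chr3:54361109-54391037 on the plus strand, Cthrc1 at chr15:39076932-39087121 on the plus strand, Spp1 at chr5:104435118-104441050 on the plus strand and Tnc at chr4:63959785-64047015 on the minus strand. Thbs1 lies at chr2:118111876-118127133 on the plus strand, Thbs2 at chr17:14665500-14694235 on the minus strand, Thbs3 at chr3:89215180-89226837 on the plus strand, Thbs4 at chr13:92751590-92794818 on the minus strand and Cilp at chr9:65265180-65280605 on the plus strand. Thbs1, Thbs3 and Tnc overlap a gene of the opposite strand, and Spp1 overlaps one of its own strand. The overlapping Gm29233 (at Thbs1), Gm42793 (at Spp1) and 8030451A03Rik (at Tnc) had at most 6 counts in any library, and the strand setting of the counting was not given in the sources used here.

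Levels per kilobase of exon gave the same order of the 10 genes in both TAC groups: Sparc, Postn, Cilp, Thbs4, Thbs1, Cthrc1, Tnc, Thbs2, Spp1 and Thbs3. Sparc had 258 ± 36.0 CPM per kb in dKO TAC and 316.5 ± 163 in control TAC (SD, n = 3 each), and Thbs3 had 2.03 ± 0.414 and 2.92 ± 2.5 in the same groups. In dKO TAC, Sparc was apart from Postn, Postn from Cilp and Thbs4 from Thbs1, while each other neighbouring pair overlapped. In control TAC all neighbouring pairs overlapped. Sparc held 89.6% of the summed CPM per kb of the 10 genes in dKO sham and 86.6% in control sham, and 51.9% and 62.6% in dKO TAC and control TAC. Postn took 22.9% and 17.0% in the TAC groups and under 5% in each sham library, with a highest value of 4.06%.

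Ordered by group mean, control TAC was highest and dKO TAC next for 9 genes, and for Thbs4 dKO TAC was highest. Control TAC replicate 3 was the highest library of its group for 9 genes, and the order by median differed. The dKO TAC median was above that of control TAC for Postn, Thbs2, Thbs3, Thbs4 and Cilp, and below it for the other genes. The TAC groups overlapped for 10 of 10 genes, and so did the sham groups. The TAC group with the lower mean was apart from the sham group with the higher mean, except for Thbs1 and Thbs2. For Thbs3, control TAC replicate 1 (5.32 CPM) still lay below control sham replicate 2 (5.91 CPM). This describes genes chosen with the TAC difference known, and the share of all genes for which it holds was not counted. Control sham replicate 2 was the highest library of its group for all 10 genes, and dKO sham replicate 1 the lowest of its group for 8.

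The number called in the TAC comparisons describes the genes as they were chosen, and nothing is read from it. In dKO, 7 of 10 were called higher after TAC than after sham by edgeR at an adjusted p under 0.05, where 7.39% of the 14712 genes were called in either direction and 4.2% higher. In control, 7 of 10 were called, where 2.25% of all genes were called in either direction and 1.9% higher. The 7 were Sparc, Postn, Cthrc1, Spp1, Tnc, Thbs4 and Cilp in both genotypes. The groups did not overlap for 9 of 10 genes in dKO and for 7 in control, against 30.7% and 21.8% of all genes in either direction and 16.2% and 11.0% with TAC higher. All 10 estimates were above 0 in each genotype, as were 49.5% of all estimates in dKO and 50.1% in control. The median log2 difference over the 10 genes was 4.63 in dKO, beside -0.01 over all genes, and 4.94 in control, beside 0.00. Both the dKO and the control comparisons of TAC with sham were fitted with 1 shared estimate of the spread.

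Single libraries moved these counts. In control, 0 members were called without control sham replicate 1 or replicate 3, when 2 and 3 genes were called in all. With either left out, 8 members had an unadjusted p under 0.05, against 10 with all libraries. Without control TAC replicate 2, 1 member was called, Thbs4, and without control TAC replicate 3 or dKO TAC replicate 1 there were 5, Tnc and Sparc being lost. Leaving out control TAC replicate 1 gave 8, with Thbs3 added. In dKO, 3 were called without dKO TAC replicate 1 (Postn, Thbs4 and Spp1) and 4 without dKO sham replicate 2 (Postn, Thbs4, Spp1 and Cilp). Sparc alone lost its call in dKO without any 1 of control sham 1 and 3, control TAC 2, dKO sham 1 and 3 and dKO TAC 2 and 3. Thbs3 gained one without control TAC 3.

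Promoter sequences of the members were read to see what those with the largest differences share. RefSeq (GRCm38.p6) held the 250 bases before the transcription start of 8 of the 10 genes, and Thbs1 and Cthrc1 are named only. The motif TATATAA, chosen after these windows had been read, was found in 2 of 8 (Postn and Cilp) and in 3.04% of 32851 mouse promoter windows of that length, counting both strands. It began 28 bases before the start in Postn and 30 bases before it in Cilp. The motif TGTGGT, the core of a RUNX site, was found in 2 of 8 (Spp1 and Cilp) and in 14% of promoters. In Spp1 it lay on the opposite strand, 128 bases before the start. GGAATG, the core of a TEAD site, occurred in 1 of 8 (Thbs4), near the 12.6% of all promoters. In Thbs4 it was a pair of overlapping matches on the opposite strand. Tnc, with log2 differences of 5.03 in dKO and 5.16 in control, had none of these motifs. The windows shown are those of these 4 genes, 5′ to 3′ on the strand of the gene: Postn at chr3:54360857-54361106 (plus), Cilp at chr9:65264930-65265179 (plus), Spp1 at chr5:104434861-104435110 (plus) and Thbs4 at chr13:92794819-92795068 (minus). Capitals mark TATATAA in Postn and Cilp, the RUNX motif in Spp1 and the TEAD motifs in Thbs4.
Postn: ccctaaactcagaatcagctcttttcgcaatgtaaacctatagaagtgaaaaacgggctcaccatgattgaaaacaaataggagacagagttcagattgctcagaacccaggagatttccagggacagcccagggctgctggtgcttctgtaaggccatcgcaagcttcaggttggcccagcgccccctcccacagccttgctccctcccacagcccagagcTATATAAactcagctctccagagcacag
Cilp: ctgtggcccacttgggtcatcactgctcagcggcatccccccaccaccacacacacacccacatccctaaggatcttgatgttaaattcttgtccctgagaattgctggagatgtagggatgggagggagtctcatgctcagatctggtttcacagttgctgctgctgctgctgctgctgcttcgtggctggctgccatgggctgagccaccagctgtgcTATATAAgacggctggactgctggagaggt
Spp1: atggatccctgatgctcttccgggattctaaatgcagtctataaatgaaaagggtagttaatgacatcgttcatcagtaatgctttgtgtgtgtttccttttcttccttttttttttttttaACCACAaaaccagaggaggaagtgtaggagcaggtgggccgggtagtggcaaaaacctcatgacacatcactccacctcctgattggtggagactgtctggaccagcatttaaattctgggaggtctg
Thbs4: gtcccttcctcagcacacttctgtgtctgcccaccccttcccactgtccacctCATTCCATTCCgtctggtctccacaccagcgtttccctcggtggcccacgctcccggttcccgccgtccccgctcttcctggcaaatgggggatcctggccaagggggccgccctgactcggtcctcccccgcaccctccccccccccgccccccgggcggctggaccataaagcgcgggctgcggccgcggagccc

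The CArG box, the DNA element that serum response factor binds, was found in 0 of the 8 windows and in 1.47% of promoters, which says only that these letters were not in these windows. TGANTCA, the AP-1 motif, was in 0 of 8 and in 6.75% of promoters. CAGAC, bound by SMAD factors, was in 4 of 8 (Thbs2, Thbs4, Spp1 and Sparc) and in 42.2% of promoters. GGGCGG was in 3 of 8 and 32.7%, and CCAAT in 3 of 8 and 33.8%. A match of letters is a description and not evidence of a bound site.

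The comparison of dKO with control after TAC asked whether loss of the MRTF factors altered the matricellular genes under pressure overload. None of the 10 was called by edgeR (Benjamini-Hochberg adjusted p 0.831 to 0.985, smallest unadjusted p 0.27), where 0.428% of all genes were called. DESeq2 and limma-voom also called 0 of 10, and 0 had an unadjusted p under 0.05 in edgeR. For all 10 genes the groups overlapped, and over all genes 17.6% had groups that did not, in either direction. The estimate was below 0 for 9 genes, and 46.0% of all genes had one above 0. The median was -0.41, beside -0.03 over all genes.

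Intervals of these differences were wide. The largest estimates were -0.89 for Cthrc1 (95% interval -2.78 to 1.01), -0.76 for Thbs2 (-2.2 to 0.67), -0.70 for Tnc (-2.63 to 1.22) and -0.61 for Thbs1 (-2.72 to 1.49), on the log2 scale of dKO minus control. Sparc was the most precise, at -0.29 (-1.08 to 0.49), and Postn was at -0.11 (-1.68 to 1.45). Thbs4, at 0.41 (-0.85 to 1.68), was the single gene with a positive estimate. All 10 intervals include 0, and the data do not show that the genotypes act alike.

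The sign of these estimates depended on single libraries. Without control TAC replicate 3, 8 of the 10 estimates changed sign, among them Postn to 1.17, Cilp to 1.42 and Cthrc1 to 0.74, and Thbs4 stood at 1.37. Without control TAC replicate 1, Thbs4 stood at -0.10 and Cthrc1 stood at -1.45. Tnc turned to 0.17 without control TAC replicate 2, and Postn and Cilp both to 0.11 without dKO TAC replicate 2. Without the 3 libraries that stood apart together (control TAC 1, dKO sham 1 and dKO TAC 2), an alternative added after the data had been seen, all 10 estimates were below 0. Spp1 was then at -1.15 ± 0.283 and Tnc at -2.06 ± 0.634, with edgeR adjusted p of 0.0531 and 0.0869, and 0 of 10 were called.

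**Figure D2:**
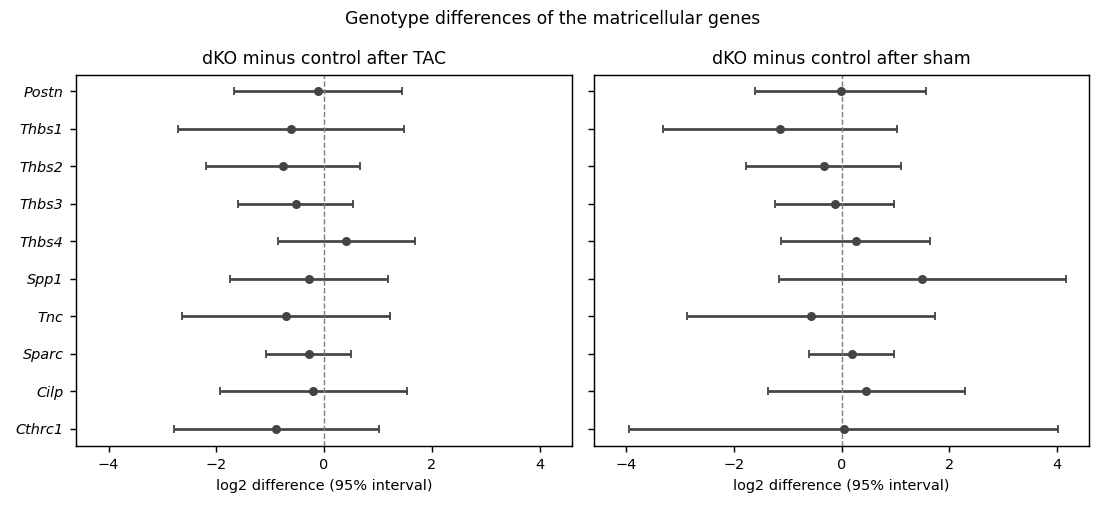
Log2 difference of dKO minus control for each of the 10 genes after TAC (left) and after sham (right). Points are edgeR estimates over 3 libraries a group and bars their 95% intervals. All 20 intervals include 0, and after TAC the point of Thbs4 (0.41) is the one to the right of the line.

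After sham, 0 of 10 genes were called between dKO and control (adjusted p 0.58 to 0.994, edgeR, smallest unadjusted p 0.243), where 0.068% of all genes were, and 0 had an unadjusted p under 0.05. DESeq2 and limma-voom called 0 of 10 as well. The groups overlapped for all 10, and 18.7% of all genes had groups that did not. Estimates were split, with 5 above and 5 below 0, against 51.5% of all genes above, and their median was 0.01, beside 0.02 over all genes. Spp1 and Cthrc1 passed the filter only through their TAC libraries, and with the sham groups fitted alone they were not tested. The widest estimates were 1.5 for Spp1 (95% interval -1.16 to 4.16), which rests on 18 counts in dKO sham and 6 in control sham, and -1.15 for Thbs1 (-3.31 to 1.02). Thbs1 turned to 0.84 without control sham replicate 2, the library in which it had 57.4 CPM. Sparc was again the most precise, at 0.19 (-0.60 to 0.97).

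The difference between genotypes in the response to TAC was tested as an interaction, the log2 TAC effect of dKO less that of control. None of the 10 genes was called (adjusted p 0.841 to 0.987, edgeR, smallest unadjusted p 0.226, with 0 under 0.05), where 0.0% of all genes were called by edgeR and 697 had an unadjusted p under 0.05. DESeq2 called 11 genes, with 0 members, and limma-voom called 0. Of the 10 estimates 8 were below 0, and 44.5% of all genes had one above 0, with medians of -0.41 for the members and -0.06 over all genes. The largest estimate was -1.78 for Spp1 (95% interval -4.81 to 1.25), followed by -0.92 for Cthrc1 (-5.42 to 3.57). Both genes had few counts after sham and passed the filter only through their TAC libraries. Postn was at -0.09 (-2.31 to 2.13) and Thbs4 at 0.15 (-1.72 to 2.03). Without the 3 libraries that stood apart, Spp1 was at -3.00 ± 0.603, with an edgeR adjusted p of 0.0796.

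Within the thrombospondin family, the shares of Thbs4 and Thbs1 did not overlap between genotypes after TAC, in a comparison of 3 libraries against 3 that cannot reach a p under 0.05. As a share of the summed CPM per kb of the 4 genes, Thbs4 made up 60.0%, 74.9% and 70.8% in dKO TAC, against 38.9%, 54.8% and 50.5% in control TAC. Thbs1 made up 23.3%, 16.7% and 18.4% in dKO TAC, against 33.5%, 33.3% and 27.7% in control TAC. Neither pair of groups overlapped. The shares of a library have a fixed sum, so a higher share of Thbs4 lowers those of the other genes. The results for Thbs4 and Thbs1 are therefore not separate observations. As levels in CPM, both genes overlapped between the TAC groups, where 17.6% of all genes did not. For shares within a gene family, no such rate over other genes was counted. The difference in means was 20.5 percentage points for Thbs4 and -12.0 for Thbs1, each with a two-sided exact permutation p of 0.1, the smallest that 3 libraries against 3 allow. Adjusted over the 8 such tests it was 0.4, so neither passed, and these shares were compared after the levels had been seen.

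The summed level of the family was 62.4 ± 8.35 CPM per kb in dKO TAC and 62.9 ± 57.2 in control TAC (SD, n = 3 each). Sham groups had 6.43 ± 2.54 in dKO and 9.08 ± 5.66 in control. Thbs2 was the main gene of the sham groups on average, with 40.8% in dKO sham and 43.7% in control sham, and Thbs4 held 23.6% and 14.6%. Thbs1 took 60.5% in control sham replicate 2 but 10.8% and 21.7% in the other control sham libraries. Exon lengths are 3289 nt for Thbs4 and 6073, 7003 and 4823 nt for Thbs1, Thbs2 and Thbs3. With each library's trend along exon length removed, the log2 difference of dKO minus control after TAC was 0.39 for Thbs4 and -0.59 for Thbs1, beside 0.41 and -0.61 with it kept.

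**Figure D3:**
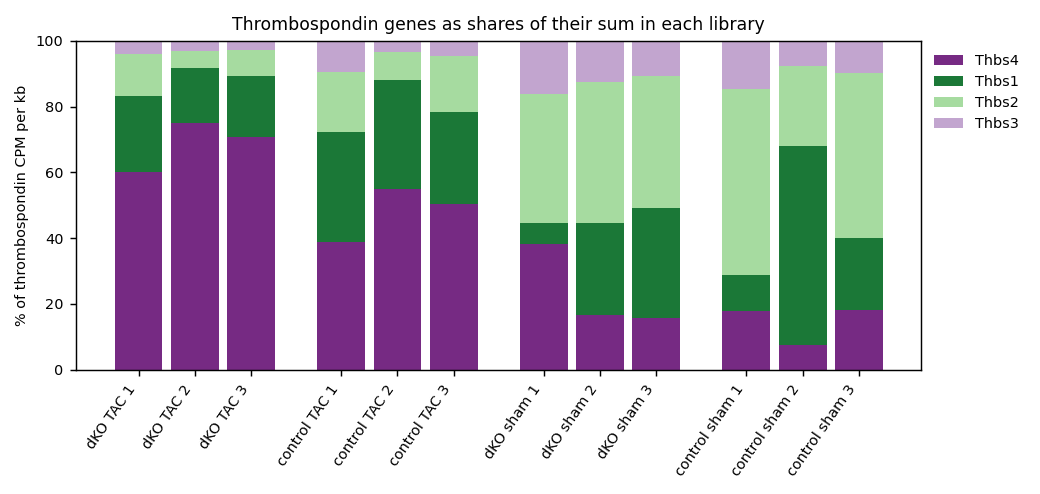
Thrombospondin genes in each library as a percentage of their summed CPM per kb of exon, stacked to 100%. Thbs4 (bottom) spans 60.0% to 74.9% in the 3 dKO TAC bars and 38.9% to 54.8% in the 3 control TAC bars, and Thbs2 is larger in the sham bars.

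The summed level of the matricellular genes was set beside those of fibroblast markers. Over the 10 genes, summed CPM was 2871.5, 2203 and 2444.5 in dKO TAC, against 808, 2497 and 5440.5 in control TAC, and 387, 448 and 571 in dKO sham, against 380.4, 628 and 303 in control sham. A list of 12 activated fibroblast markers, among them Col1a1, Lox and Meox1, summed to 3563.5, 2527 and 3061 CPM in dKO TAC, against 1125, 3732 and 9683 in control TAC. After sham it summed to 224, 413 and 536.5 CPM in dKO and 335, 888.5 and 291 in control. Control TAC replicate 1 was lowest and replicate 3 highest of the TAC libraries in both sums.

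In control TAC, dKO sham and control sham, the summed markers of resident fibroblasts ranked the libraries as the members' sum did. In dKO TAC the marker sum was highest in replicate 2, where that of the members was lowest. Single markers differed there: Pdgfra had 35.0, 25.1 and 34.0 CPM and Tcf21 6.46, 6.42 and 4.56 CPM in replicates 1 to 3. The 12 resident markers summed to 656 to 771 CPM in dKO TAC against 525 to 1417.5 CPM in control TAC. After sham the sums were 387 to 688 CPM in dKO against 515 to 745 CPM in control, and all 12 were detected in every group. All 12 had estimates below 0 in dKO against control after TAC, with a median of -0.35, 2 with an unadjusted p under 0.05 and 0 called by edgeR. Over all 14712 genes, 46.0% had an estimate above 0 and 1305 had an unadjusted p under 0.05. This sign was not particular to resident fibroblasts. Also below 0 were 10 of 12 activated fibroblast, 17 of 17 macrophage and 13 of 13 endothelial markers. So were 8 of 9 mural, 6 of 7 nerve and epicardial, 4 of 4 blood and 8 of 12 cardiomyocyte markers. In TAC against sham, 0 were called in control and 1 in dKO, Scara5, named here after its values were seen, which was lower (log2 -2.01 ± 0.359, adjusted p 0.00865, edgeR). Of the activated markers, 7 of 12 were called higher after TAC in each genotype (Col1a1, Col1a2, Col3a1, Col5a2, Col8a1, Lox and Meox1), beside 4.2% of all genes in dKO and 1.9% in control. Fewer cells of a type and less RNA per cell cannot be told apart in such bulk libraries, and the part that fibroblast content has in the differences between TAC libraries was not tested.

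**Figure D4:**
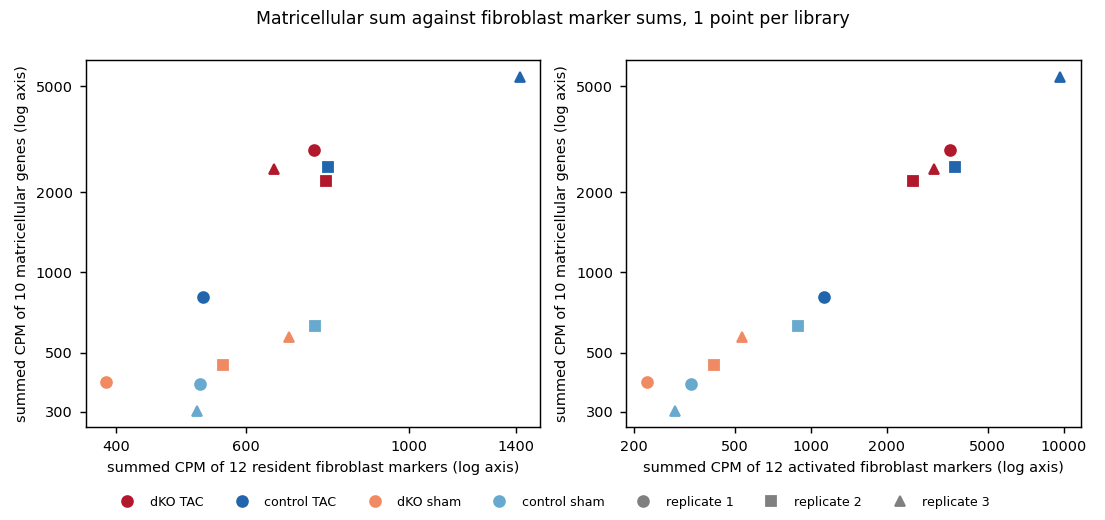
Summed CPM of the 10 matricellular genes (vertical, log axis) against the summed CPM of 12 resident (left) and 12 activated (right) fibroblast markers (horizontal, log axes), 1 point per library. Control TAC replicate 1 lies at 808 CPM on the vertical axis, between the sham libraries (303 to 628 CPM) and the other TAC libraries (2203 to 5440.5 CPM).

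Each level was also divided by the summed resident fibroblast markers of its library, an alternative added after the data had been seen. Per 100 CPM of those markers, Thbs4 had 16.3, 17.4 and 25.3 CPM in dKO TAC, against 2.81, 12.3 and 14.6 in control TAC. These groups did not overlap, as held for 6.28% of all genes on this scale, and their exact permutation p was 0.1, the smallest possible, or 1.0 adjusted over 20 tests. In CPM alone they overlapped (121 to 166 against 14.8 to 207), so the separation depends on the divisor. Thbs4 is also made by cardiomyocytes, for which fibroblast markers give no scale. For the other 9 genes the TAC groups overlapped. Postn had 174, 89.5 and 158 CPM per 100 in dKO TAC, against 25.9, 98.3 and 167 in control TAC. Sparc spread little on this scale, at 137, 142 and 126 in dKO TAC, against 110, 156 and 128 in control TAC. After sham, Sparc had 73.7 ± 13.9 in dKO and 56.8 ± 8.92 in control (SD, n = 3 each), without overlap, as in 8.43% of all genes, and with an exact permutation p of 0.1, or 1.0 adjusted. In CPM alone, Sparc overlapped between the sham groups.

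Among other cell types, macrophage markers, a source of Spp1, summed to 321 to 574.5 CPM over 17 genes in dKO TAC and 263 to 856 in control TAC, against 288.5 to 358 in dKO sham and 185 to 393 in control sham. None of the 17 was called by edgeR in any comparison. At an unadjusted p under 0.05, 5 passed in TAC against sham in dKO, 13 in control and 0 in either genotype comparison. Of all 14712 genes, 4064 passed in dKO, 2480 in control, 1305 between genotypes after TAC and 1361 after sham. Spp1 and the macrophage sum were both highest in replicate 2 among dKO TAC libraries and in replicate 3 among control TAC libraries. So were Sparc and the resident fibroblast sum, so this match is not particular to Spp1 or to macrophage markers. The part of macrophage content in Spp1 was not tested. Endothelial markers (13 genes) summed to 1069.9 to 1659 CPM in dKO TAC and 1612 to 2171.5 in control TAC, with 0 called and 1 under an unadjusted p of 0.05 in dKO against control. Mural cell markers (9 genes) summed to 619 to 931 CPM in dKO TAC and 801 to 1199 in control TAC, and 1 gene, Cnn1, was called higher after TAC in control. Nerve and epicardial markers summed to at most 68.3 CPM and blood markers to at most 76.4 CPM in any library. Cardiomyocyte markers (12 genes) summed to 58142 to 70802 CPM in dKO TAC against 80334 to 171562 CPM in dKO sham, without overlap. Of single genes, 30.7% did not overlap in that comparison, in either direction. The highest of these sums was that of dKO sham replicate 1, beside 88132.5 and 80334 CPM in replicates 2 and 3. In control the markers summed to 62903 to 103929.7 CPM after TAC against 80624 to 106566 CPM after sham, which overlapped. In dKO, 10 of the 12 had estimates below 0 in TAC against sham, 8 had an unadjusted p under 0.05, and Ckm, named here after its values were seen, was called lower (log2 -1.78 ± 0.392, adjusted p 0.0211, edgeR). In control, 10 were below 0, 2 had an unadjusted p under 0.05 and 0 were called by edgeR. Over all genes, 49.5% of estimates were above 0 in dKO and 50.1% in control. In either direction, 7.39% of all genes were called in dKO and 2.25% in control. The part of cardiomyocyte content in the members' difference between TAC and sham was not tested. Control TAC replicate 1 had the highest cardiomyocyte sum of the 6 TAC libraries.

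The genes most like the members across the 12 libraries encode collagen chains. Likeness was measured as the root mean square difference of log2 CPM, centred over libraries, from the mean profile of the 10 genes, among 9938 genes with at least 5 CPM. Col5a2 was nearest at 0.205, followed by Col1a1 at 0.271, Col8a1 at 0.304, Col1a2 at 0.316 and Col3a1 at 0.318, where the profile itself had a root mean square of 1.99. All 5 stand in the activated fibroblast list. Postn was the member nearest to the mean profile, at 0.576, and Thbs2 the farthest, at 1.42.

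Single members had other nearest genes. Lox, which crosslinks collagen, was nearest to Postn at 0.272, and Vim, an intermediate filament gene of fibroblasts and other mesenchymal cells, to Sparc at 0.132. Ltbp2, a relative of the latent TGF-beta binding proteins found on microfibrils, was nearest to Thbs4 (0.571), Spp1 (0.696), Cilp (0.373) and Cthrc1 (0.625). Thbs1 was nearest to Fn1, fibronectin, at 0.508, and Thbs3 to Ccdc80, a secreted matrix protein gene, at 0.203. Tnc had no close neighbour, with Col12a1 at 0.953 the nearest, and Thbs2 was nearest to Dock10 at 0.307.

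Integrins, CD44, CD47 and other receptors carry the signals of matricellular proteins into cells. The lists of related genes were also chosen with earlier results of these libraries known, so their calls after TAC are no independent evidence. Of 20 receptor genes, 4 were called higher after TAC in dKO and 1 in control, beside 4.2% and 1.9% of all genes. Itga5, the integrin chain that with Itgb1 binds fibronectin, averaged 149.5 CPM in dKO TAC and 65.6 in dKO sham (log2 1.19 ± 0.184, adjusted p 0.00493, edgeR). In control it averaged 126 CPM after TAC and 63.0 after sham (1.0 ± 0.183, adjusted p 0.019). Itgb1, Itga9, which binds tenascin C and osteopontin, and Cd44 were called in dKO, with log2 differences of 1.02 ± 0.248, 1.46 ± 0.279 and 1.95 ± 0.446. In control these stood at 0.46 ± 0.246, 1.0 ± 0.275 and 1.49 ± 0.442 and were not called, and their interaction estimates did not pass either (adjusted p 0.841 to 0.88, edgeR). The median over the receptors was 0.90 in dKO and 0.91 in control.

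Other matricellular genes formed a list of 24, of which 21 were tested. Of these, 4 were called higher after TAC in dKO (Ctgf, Fstl1, Lgals3 and Wisp1) and 2 in control (Fstl1 and Wisp1), beside 4.2% and 1.9% of all genes. Ctgf, a connective tissue growth factor of the CCN family, averaged 597 CPM in dKO TAC and 85.4 in dKO sham (log2 2.80 ± 0.565, adjusted p 0.0142, edgeR), and 399 CPM in control TAC and 126 in control sham (1.66 ± 0.542, adjusted p 0.139). Its interaction estimate was 1.14 ± 0.75 and did not pass (adjusted p 0.841). Fstl1, a secreted relative of Sparc, differed by 2.89 ± 0.586 in dKO and 2.96 ± 0.587 in control. The median over this list was 0.47 in dKO and 1.10 in control.

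The TGF-beta pathway, which several members bind or release, had 3 of 19 genes called higher after TAC in dKO, among them Tgfb2 and Ltbp2, and 1 in control (Ltbp2). Over all genes, 4.2% were called higher in dKO and 1.9% in control. Tgfb2, a ligand of the pathway, averaged 42.6 CPM in dKO TAC and 15.6 in control TAC, a log2 difference of 1.44 ± 0.379 that was not called (adjusted p 0.16, edgeR). Its interaction estimate was 1.5 ± 0.541 and was not called either (adjusted p 0.841). Of 18 endoplasmic reticulum chaperone genes, on which Thbs4 is known to act in mouse heart, 17 were tested and 0 were called in any comparison. Their median log2 difference between TAC and sham was 0.09 in dKO and 0.20 in control. In all 4 lists edgeR called 0 genes between dKO and control after either surgery or in the interaction. After TAC, 1 receptor, 1 other matricellular gene, 3 TGF-beta pathway genes and 1 chaperone had an unadjusted p under 0.05 between dKO and control, as had 1305 of all 14712 genes.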

How the data were processed

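RNA sequencing was done on sedimented cardiomyocytes of 12 libraries, 3 in each of 4 groups, with a stranded kit per the labels' protocols. The values analysed are whole-number counts of reads for each gene symbol, as deposited. Per the submitters' processing notes, the authors used Trimmomatic 0.36, STAR 2.5.2b and featureCounts of Subread 1.5.0p3 with GRCm38.p5 to make these counts, and the annotation and strand setting were not given in the sources used here. All 12 columns were matched to samples by title, and no 2 libraries agreed within sampling noise.

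The 10 genes, the related lists and the marker lists were chosen with earlier results of these data known. Genes were filtered with edgeR's filterByExpr, which kept 14712 of the 49568 genes, while 21344 genes had no count in any library. All 12 libraries were fitted together by edgeR's quasi-likelihood test (edgeR 4.0.16, R 4.3.3) with TMM scaling and no covariates, leaving 8 residual degrees of freedom, and p-values were Benjamini-Hochberg adjusted over all 14712 genes, with a threshold of 0.05. Intervals are at 95%. The edgeR test gives no SE, so each SE was derived from the estimate and its F statistic. The intervals of edgeR estimates are symmetric limits from that SE and the t distribution. CPM per kb used exon lengths of GENCODE mouse release 21, and log2 CPM for the likeness of profiles used a prior count of 2. Promoter windows came from RefSeq. The fit was tested on simulated data with known changes. Named besides the members were Mkl1 and Mkl2, up to 4 called genes per related list and comparison, the 5 genes nearest to the mean profile and 1 nearest gene per member. One called gene of the related lists is not reported here. Alternatives used DESeq2 1.42.0, limma 3.58.1, other scaling, filters and libraries. Python 3.11.15 and matplotlib 3.10.9 were used for plots.

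Counts limit the precision of Spp1 and Cthrc1 in sham libraries.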

Additional observations from a re-analysis of the deposited data

How the results depend on the processing

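Scaling by RLE size factors and leaving out mitochondrially encoded genes left the calls of members at 7 of 10 after TAC in each genotype and at 0 in the genotype comparisons and the interaction. On unscaled totals or RLE size factors, 79 of 80 mean member levels moved by less than 1 SD, the exception being Thbs4 in control sham at 3.35 CPM on unscaled totals, beside 3.59. In TAC against sham in control, where 331 genes were called, DESeq2 called 1005, limma-voom 175 (4 members), no filter 936 and only the groups compared 2 (0 members, 8 of which had an unadjusted p under 0.05). In TAC against sham in dKO, where 1087 were called, DESeq2 called 2376, only the groups compared 647, and limma-voom 4 members. In dKO against control after TAC (63 called), DESeq2 called 320, no filter 129 and removal of the length trend 134. After sham (10 called), these settings called 62, 53 and 16, and only the groups compared 5. In the interaction (0 called, 697 with an unadjusted p under 0.05), they called 11, 5 and 1, with 0 members under any.

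Some member estimates changed sign. In dKO against control after TAC, limma-voom gave 0.65 for Postn, 0.37 for Spp1, 0.64 for Cilp and 0.31 for Cthrc1. After sham, removal of the length trend gave 0.15 for Postn and -0.23 for Cthrc1. In the interaction, limma-voom gave 0.73 for Postn, 0.19 for Thbs2, 0.01 for Tnc, 0.10 for Cilp and 0.03 for Cthrc1. The cause was not tested.

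The replicate block gave 252 calls in TAC against sham in control, 937 in dKO, 41 in dKO against control after TAC, 10 after sham and 0 in the interaction. It called 7, 7, 0, 0 and 0 members, in dKO with Thbs1 in place of Sparc. With the replicate block, estimates of dKO against control after TAC turned to 0.38 for Postn, 0.19 for Thbs1, 0.17 for Spp1 and 0.42 for Cilp, that of Cthrc1 after sham to -0.09, and interaction estimates to 0.61 for Postn, 0.10 for Thbs2, 0.05 for Tnc and 0.17 for Cilp. Same-numbered libraries of different groups correlated at -0.661 to 0.51 in their deviations from group means, over 0.1 in 11 of 18 pairs, and 4 of 12 libraries correlated best with their own number, so the numbers were not taken to pair libraries.

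Leaving out each library in turn gave 2 to 1130 calls in TAC against sham in control (0 to 8 members), 210 to 1389 in dKO (3 to 8 members), 8 to 252 in dKO against control after TAC, 5 to 12 after sham and 0 to 1 in the interaction, with 0 members in the last 3. Thbs2 in TAC against sham in control ranged from -0.03 to 1.95. After TAC, dKO against control ranged from -0.63 to 1.17 for Postn, -1.09 to 0.20 for Thbs1, -1.23 to 0.77 for Thbs2, -0.92 to 0.45 for Thbs3, -0.10 to 1.37 for Thbs4, -0.81 to 0.36 for Spp1, -1.53 to 0.17 for Tnc, -0.62 to 0.14 for Sparc, -0.73 to 1.42 for Cilp and -1.45 to 0.74 for Cthrc1. After sham it ranged from -0.39 to 0.34 for Postn, -1.78 to 0.84 for Thbs1, -0.37 to 0.18 for Thbs3, -1.35 to 0.86 for Tnc, -0.01 to 0.49 for Sparc and -0.48 to 1.02 for Cthrc1. The interaction ranged from -0.62 to 1.19 for Postn, -1.46 to 1.34 for Thbs1, -0.90 to 1.10 for Thbs2, -0.79 to 0.57 for Thbs3, -0.36 to 1.10 for Thbs4, -1.56 to 0.74 for Tnc, -1.29 to 0.96 for Cilp and -1.90 to 0.69 for Cthrc1.

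Without dKO sham 1 and dKO TAC 2 together, the libraries low in mitochondrial counts, 771 genes were called in TAC against sham in control, 508 in dKO against control after TAC (Postn 0.10, Cilp 0.11) and 2 in the interaction, and after sham Postn stood at 0.31, Thbs3 at 0.03 and Cthrc1 at -0.18. Without control TAC 1 as well, chosen after seeing the data, 3625 genes were called in TAC against sham in control (10 members), 2689 in dKO (7 members), 690 in dKO against control after TAC (Thbs4 -0.07), 19 after sham (Postn 0.31, Thbs3 0.04, Cthrc1 -0.17) and 4 in the interaction (Thbs1 -0.28, Thbs4 -0.27). With 3 libraries a group, depth limits Spp1 and Cthrc1 after sham, and the wide control TAC spread limits every genotype comparison after TAC.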
